A study of Mus musculus with 48 samples.

Results

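Wnt ligands and their secreted antagonists were followed in 3T3-L1 cells with and without PPARγ. The members are 10 genes, the ligands WNT4, WNT5A, WNT5B, WNT6, WNT10A and WNT10B and the antagonists SFRP1, SFRP2, DKK2 and DKK3, chosen by name and read by every probe filed under those symbols, which gave 12 of 24613 probes and 10 of 18991 symbols. 3T3-L1 is a mouse fibroblast line that turns into fat cells under a hormone cocktail. Cells were transfected before differentiation with 50 nM of a pooled siRNA against PPARγ (PPARγ KD) or of a pooled non-targeting siRNA (control siRNA). Both groups then received the same cocktail, 0.5 mM IBMX and 0.25 µM dexamethasone from day −2, when the cells were confluent, and 5 µg/ml insulin with 1 µM rosiglitazone from day 0. RNA was taken on day −2 and on days 0 to 6, with 3 biological replicates of each siRNA and day on 48 arrays. All groups share 1 cell line, and the siRNA was given as a pool, so the values compare these transfected cultures and not a genetic loss of the receptor. Because PPARγ is itself the target of rosiglitazone, the control cultures and the PPARγ KD cultures received the same ligand with different amounts of its receptor.

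Wnt ligands are secreted, lipid-modified proteins that bind Frizzled receptors. In the canonical branch they also engage the coreceptors LRP5 and LRP6, which stabilises β-catenin and lets it drive TCF/LEF target genes, while other ligands, WNT5A the best known among them, act mostly without β-catenin. Secreted frizzled-related proteins such as SFRP1 and SFRP2 bind Wnt ligands outside the cell, and Dickkopf proteins such as DKK2 bind the LRP coreceptors. Canonical Wnt signalling is known to hold preadipocytes in the undifferentiated state, with WNT10B as the classical ligand and WNT6 and WNT10A as further ligands with that activity, and PPARγ is the receptor that fat cell differentiation requires.

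Signals are given as log2 of the background-corrected intensity after scaling, and differences as PPARγ KD minus control siRNA, so a positive value means a transcript that was higher when PPARγ was lowered, which the study calls repressed by PPARγ. A probe counted as above background on an array at a detection p under 0.01, and a probe was called where its p, after Bonferroni adjustment over all 24613 probes, was 0.05 or less in a limma fit of all 48 arrays with the replicate number as a block. Of the 12 member probes, 6 were above background on at least 3 arrays. They read 5 genes, WNT4, WNT5A (with 2 probes), WNT6, SFRP2 and DKK3. The other 6 probes, those of WNT5B, WNT10A, WNT10B, SFRP1 and DKK2 and the other DKK3 probe, were above background on no array.

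RefSeq promoter sequences on GRCm38.p6 were at hand for 6 of the 10 members, Wnt4, Wnt5b, Wnt6, Wnt10b, Sfrp2 and Dkk2, and not for Wnt5a, Wnt10a, Sfrp1 and Dkk3. The 250 bases before the listed start site are shown for Wnt6, Wnt4 and Sfrp2, since these 3 genes were higher together in the PPARγ KD on day 2. The Wnt6 and Sfrp2 windows lie inside the RefSeq spans of these genes, and sequence before the outer end of those spans was not examined. Capitals mark matches to the Sp1 motif GGGCGG on either strand, so that a match on the other strand reads as its reverse complement, and matches can overlap.
Wnt6, chr1:74771642-74771891, plus strand: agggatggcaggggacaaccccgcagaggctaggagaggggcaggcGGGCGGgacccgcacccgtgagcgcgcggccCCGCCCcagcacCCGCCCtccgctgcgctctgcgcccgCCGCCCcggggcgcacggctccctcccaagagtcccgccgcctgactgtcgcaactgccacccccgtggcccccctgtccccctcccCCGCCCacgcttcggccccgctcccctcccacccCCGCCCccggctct
Wnt4, chr4:137277385-137277634, plus strand: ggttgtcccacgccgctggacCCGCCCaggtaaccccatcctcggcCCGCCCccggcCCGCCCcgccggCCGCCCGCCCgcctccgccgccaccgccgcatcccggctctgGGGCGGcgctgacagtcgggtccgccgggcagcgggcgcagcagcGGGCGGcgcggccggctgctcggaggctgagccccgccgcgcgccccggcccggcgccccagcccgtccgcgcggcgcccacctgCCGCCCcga
Sfrp2, chr3:83766071-83766320, plus strand: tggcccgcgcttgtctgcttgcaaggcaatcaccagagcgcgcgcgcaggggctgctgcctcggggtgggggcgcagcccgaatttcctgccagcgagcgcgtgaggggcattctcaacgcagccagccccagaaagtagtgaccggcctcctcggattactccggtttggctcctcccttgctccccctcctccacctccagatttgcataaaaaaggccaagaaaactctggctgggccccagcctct
The Wnt6 window held 6 matches to GGGCGG and the Wnt4 window 8, while the Sfrp2 window held none. Among 32851 promoter windows of the same length, 32.7% held at least 1 match, 0.886% held at least as many as Wnt6 and 0.155% at least as many as Wnt4. Base composition differed in the same order, with 79.6% G and C in the Wnt6 window, 85.2% in Wnt4 and 63.6% in Sfrp2, against a median of 52.4% over all windows. None of the 3 windows held the nuclear receptor hexamer AGGTCA (14% of all windows), a direct repeat of AGGTCA with 1 base between, the arrangement PPARγ binds with its partner RXR (0.0335%), any of the TCF/LEF motifs, which open with CTTTG and end in AA, AT, TA or TT (14.8%), the glucocorticoid receptor palindrome of AGAACA and TGTTCT with 3 bases between (0.00913%), or the cAMP response element TGACGTCA (1.55%). Only these exact letters were searched, so inexact sites within the windows were not examined, and neither were sites elsewhere. The motif the study derived from its own binding sites has no fixed T in the left hexamer. An exact repeat is so rare among all windows that its absence from these 3 tells little. Wnt6 and Wnt10a are neighbours on chromosome 1, with no other protein-coding gene listed between them, and on the arrays the WNT6 probe was above background on 40 of 48 arrays and the WNT10A probe on 0.

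The targeted transcript was lower in the PPARγ KD throughout. The PPARG probe with the highest signal, 6130632, read 10.001, 11.54 and 12.22 (log2 signal; lowest, median and highest of 24 arrays) with control siRNA and 7.58, 9.35 and 9.81 in the PPARγ KD, so the groups did not overlap, and its difference over all days was −2.34 (SE 0.04, limma adjusted p = 9.48e-34). All 3 PPARG probes were called lower over all days. Day by day, probe 2680603 was called lower on days 3 to 6 only, and before day 4 it was above background on no array. Adipocyte markers moved with the siRNA and with the day: 9 of their 10 probes were called lower in the PPARγ KD, and their summed signal on day 6 was 131067 to 141553 with control siRNA and 30564 to 33174 in the PPARγ KD. Fibroblast markers were called higher for 9 of 16 probes and lower for 0, and their summed signal was 141846 to 148384 with control siRNA and 125494 to 145390 in the PPARγ KD on day −2, then 74806 to 83037 and 114343 to 125962 on day 2. The groups overlapped on day −2, with the lowest array in the PPARγ KD, and on day 2 all PPARγ KD arrays were higher. CD34, on the fibroblast list, was above background on no array. Of the 29 probes of macrophage, endothelial, skeletal muscle, epithelial and osteoblast lists, 2 were above background on 3 or more arrays and 0 were called by limma after Bonferroni adjustment (9 at an unadjusted p under 0.05). In RNA from whole cultures, fewer cells of a type and less RNA per cell cannot be told apart. The part of these markers in the results below was not tested.

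Over all 8 days, 5 of the 12 member probes, reading 4 genes, were called, all higher in the PPARγ KD. Across all 24613 probes, 13.1% were called and 6.37% were called higher. The median difference was 0.15 over the 12 member probes, of which 6 were above background on no array, and −0.03 over all probes. The 6 members above background had a median of 0.46, beside 0.02 for all 10567 probes above background on at least 3 arrays. The ligand WNT6 had the largest difference, the called probes of WNT4, WNT5A and the antagonist SFRP2 lay between 0.44 and 0.67, and DKK3 did not pass.

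**Figure D1:**
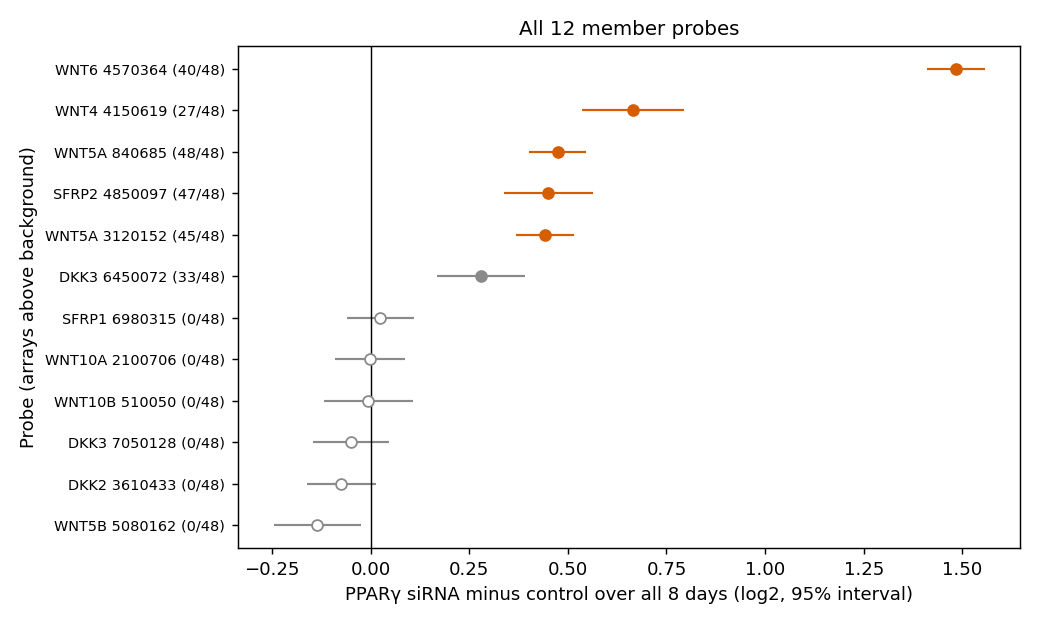
Difference between PPARγ KD and control siRNA over all 8 days (log2, x axis) for each of the 12 member probes, with 95% intervals from the fit; filled points are probes above background on at least 3 of 48 arrays, orange ones are called higher, and the number of arrays above background stands beside each name. WNT6 sits at 1.48, the other 4 called probes between 0.44 and 0.67, and the open points, which were above background on no array, are drawn at their fitted values and measure no level.

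WNT6, a canonical ligand, was the member that differed most. Its signal ran from 5.74 through a median of 6.63 to 7.62 on the 24 control arrays and from 7.38 through 8.21 to 8.88 on the 24 PPARγ KD arrays. On each of the 8 days every PPARγ KD array lay above every control array, and the PPARγ KD array was the higher in 24 of 24 pairs of the same day and replicate number. The difference over all days was 1.48 (SE 0.04, limma adjusted p = 3.36e-28), and the 3 replicates spread around it with an SD of 0.04. Since 16 of the 24 control arrays and all 24 PPARγ KD arrays were above background, no fold is given over all days, and without background correction the difference was 0.90.

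WNT6 already differed on day −2, the day the cocktail began. On that day the control arrays read 6.29, 5.94 and 6.61 and the PPARγ KD arrays 7.59, 7.38 and 7.97, which gave a difference of 1.36 (SE 0.10, limma adjusted p = 2.3e-11). On day 2 the control arrays read 6.06, 5.77 and 6.42, none of them above background, and the PPARγ KD arrays 8.40, 8.27 and 8.88. The fitted difference that day was 2.43 (SE 0.10, limma adjusted p = 9.83e-20), and since the control side was not well above background the fold is given as at least 3.73-fold higher. Day 0 was of the same kind, with no control array above background, all 3 PPARγ KD arrays above it, and a signal at least 2.56-fold higher in the PPARγ KD. The remaining days gave differences from 1.08 (day 6) to 1.37 (day 5).

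The control course of WNT6 rose late. Its control mean was 6.17 ± 0.40 (SD, n = 3) on day 0 and 6.08 ± 0.32 on day 2, and those of days 4, 5 and 6 were 7.16 ± 0.16, 7.09 ± 0.24 and 7.13 ± 0.44. From day 2 to day 6 the control signal rose at least 1.42-fold (limma adjusted p = 5.55e-08), the bound being taken against the level of background on day 2. In the PPARγ KD the signal rose from 7.84 ± 0.26 on day 0 to 8.52 ± 0.32 on day 2 (difference 0.68, limma adjusted p = 0.00211), and the step from day 2 to day 6 was −0.31 and not called. The PPARγ KD level on day −2, 7.64 ± 0.30, was above each control mean up to day 6.

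WNT4, a ligand that signals with or without β-catenin depending on the tissue, peaked on day 0 in both groups. With control siRNA the day −2 arrays read 6.89, 6.50 and 6.80, those of day 0 read 7.99, 8.27 and 8.15, and those of day 2 read 5.40, 5.32 and 6.14. The PPARγ KD arrays of the same days read 7.31, 7.20 and 7.10, then 8.67, 8.21 and 8.96, then 6.69, 6.33 and 7.06. The rise from day −2 to day 0 was 1.41 in each group (SE 0.18, limma adjusted p = 7.17e-05 with control siRNA and 7e-05 with PPARγ KD), and this step spans the IBMX and dexamethasone treatment.

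After day 0 the WNT4 signal fell in both groups. None of the 18 control arrays of days 1 to 6 was above background, while 15 of the 18 PPARγ KD arrays were. From day 0 to day 2 the control signal dropped at least 2.86-fold and the PPARγ KD signal fell by 1.92 on the log2 scale (limma adjusted p = 2.39e-08). Over all days the difference between siRNAs was 0.67 (SE 0.06, limma adjusted p = 4.16e-08), its replicates had an SD of 0.05 and 22 of 24 pairs were higher, and without background correction it was 0.31. Day by day it was called only on day 2 (1.08, limma adjusted p = 0.0198), where the bound is at least 1.05-fold, and that call was lost without any 1 replicate (limma adjusted p = 1, 1 and 0.107 without replicates 1, 2 and 3). On days 1, 3, 4, 5 and 6 the bound lay between 1.08 and 1.38. Its control level from day 1 on is therefore unknown below background.

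**Figure D2:**
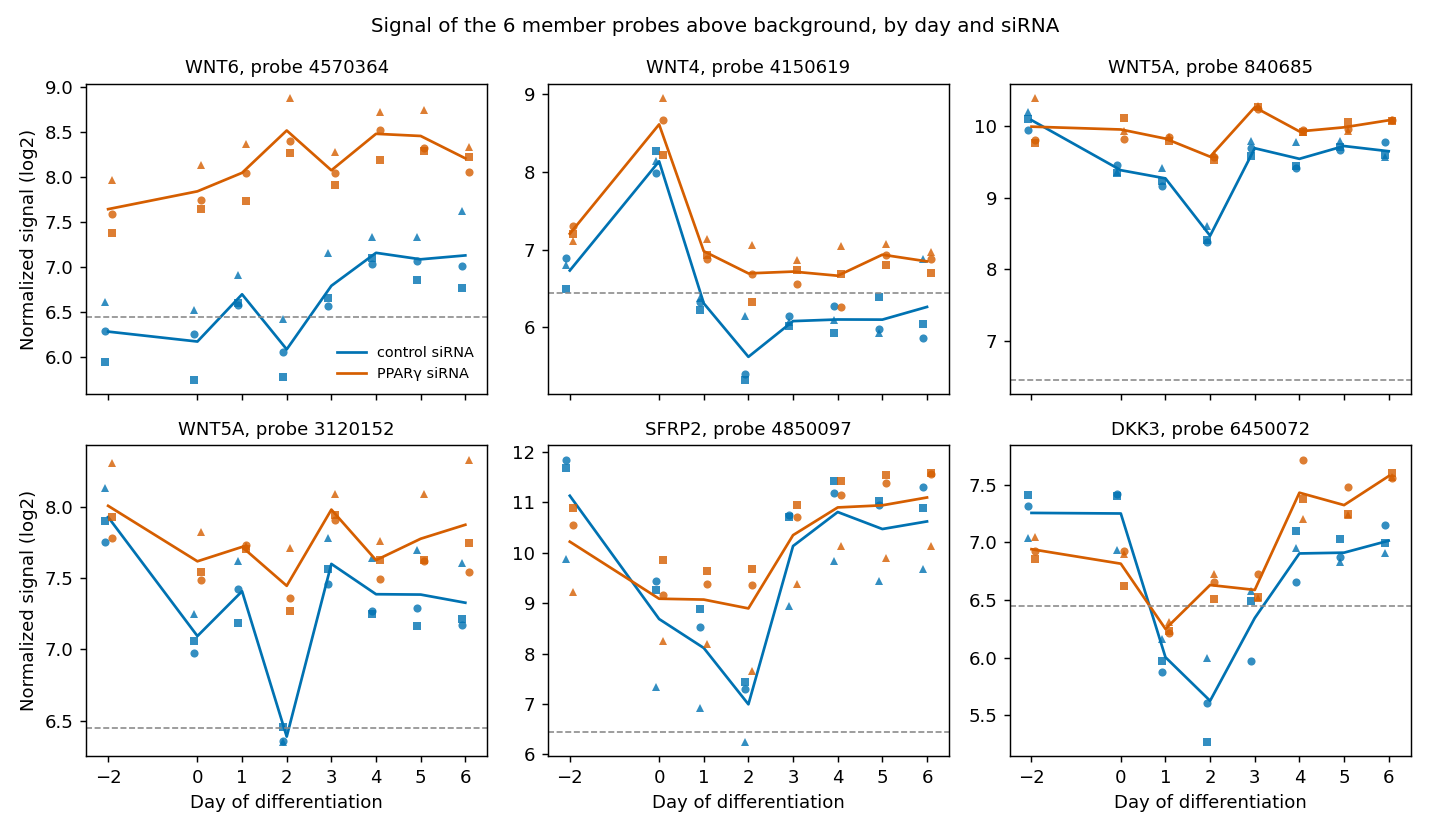
Normalized signal (log2, y axis) by day of differentiation for the 6 member probes above background, with control siRNA (blue) and PPARγ siRNA (orange); points are arrays, with circles, squares and triangles for replicates 1, 2 and 3, lines are means, and the dashed line is the median over arrays of the lowest signal among probes above background. The orange WNT6 points lie above the blue ones on all 8 days, and the WNT4 peak on day 0 stands in both groups. The control lines of all 6 probes are lowest on day 2, where only WNT5A probe 840685 and SFRP2 have control arrays above background.

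WNT5A, the main non-canonical ligand, was read by 2 probes that moved alike. The brighter, 840685, was above background on 48 of 48 arrays and the other, 3120152, on 45, and their 16 condition means correlated at r = 0.95, each mean resting on the same arrays for both. Over all days the brighter probe differed by 0.47 (SE 0.04, limma adjusted p = 3.59e-11) and the other by 0.44 (SE 0.04, limma adjusted p = 3.52e-10). The PPARγ KD was the higher in 22 and 24 of 24 pairs.

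On day −2 WNT5A did not separate the groups. The brighter probe read 9.95, 10.10 and 10.21 with control siRNA and 9.81, 9.77 and 10.40 in the PPARγ KD, so that the arrays overlapped and the means differed by −0.09 (SE 0.10). By day 2 the same probe read 8.39, 8.41 and 8.61 with control siRNA and 9.57, 9.54 and 9.62 in the PPARγ KD, or 1.11 higher (SE 0.10, limma adjusted p = 1.08e-08). The other probe read 6.36, 6.46 and 6.35, not above background, against 7.36, 7.27 and 7.71, which is at least 1.77-fold higher in the PPARγ KD (limma adjusted p = 4.21e-08). On each of the 7 days from day 0 on, every PPARγ KD array of the brighter probe lay above every control array, though its difference was called on days 2 and 3 (0.57 on day 3, limma adjusted p = 0.0488) and on no other day. The day 3 call was lost without any 1 replicate (limma adjusted p = 1, 1 and 0.0779), and the day 2 call was kept without each.

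The control course of WNT5A had 2 falls and a recovery. Its brighter probe fell by 0.70 from day −2 to day 0, fell by 0.92 from day 0 to day 2 and rose by 1.18 from day 2 to day 6 (adjusted p = 0.000994, 1.75e-06 and 1.56e-09 from limma). With PPARγ KD the same 3 steps were −0.04, −0.38 and 0.51, none of them called. By the other probe they were −0.39, −0.17 and 0.43, also not called, so the 2 probes differed in size on the first step. The span between the lowest and highest daily means of the brighter probe was 1.62 with control siRNA and 0.69 in the PPARγ KD.

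SFRP2, a secreted antagonist that binds Wnt ligands, had the widest course of the members. Its control arrays read 11.85, 11.68 and 9.87 at the start (day −2), 9.45, 9.27 and 7.34 by day 0, 7.30, 7.44 and 6.24 at the lowest point (day 2), and 11.31, 10.88 and 9.68 by day 6. Replicate 3 was the lowest on every day in both groups, which gives the wide SDs of SFRP2 means, and the replicate block takes that up in the fit. PPARγ KD arrays of the same 4 days read 10.55, 10.88 and 9.23, then 9.16, 9.86 and 8.24, then 9.36, 9.67 and 7.65, and at last 11.57, 11.59 and 10.13.

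With control siRNA SFRP2 fell by 2.44 from day −2 to day 0, fell by 1.69 from day 0 to day 2, then rose by 3.63 to day 6 (adjusted p = 2.12e-13, 1.56e-08 and 3.65e-19 from limma). Of the 3 control arrays of day 2, 2 were above background, so no fold is given for the steps that touch that day. With PPARγ KD it fell by 1.13 over the first step (limma adjusted p = 0.000405), changed by −0.19 over the second, which was not called, and rose by 2.20 over the third (limma adjusted p = 6.04e-12). The span between its lowest and highest daily means was 4.14 with control siRNA and 2.20 in the PPARγ KD.

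The difference between siRNAs in SFRP2 turned with the day. On day −2 it was −0.91 (SE 0.16, limma adjusted p = 0.0308), lower in the PPARγ KD in 3 of 3 pairs, the single member call in that direction among 16 calls over 96 probe-day pairs. It was 0.40 on day 0, which was not called, and 0.96 on day 1 (limma adjusted p = 0.0118, and 0.104, 1 and 1 without replicates 1, 2 and 3). On day 2 it was 1.90 (SE 0.16, limma adjusted p = 5.21e-10), with 2 of 3 control arrays above background, and on days 3 to 6 it lay between 0.09 and 0.47. Averaged over all days it was 0.45 (SE 0.06, limma adjusted p = 2.61e-05), and its replicates had an SD of 0.18. SFRP2 was not called over all days without replicate 2 (0.40, limma adjusted p = 0.477) or without replicate 3 (0.39, limma adjusted p = 0.0815), and its call on day −2 was lost without any 1 replicate, with adjusted p-values of 1, 1 and 0.177 from limma without replicates 1, 2 and 3.

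DKK3, a divergent Dickkopf protein whose place in Wnt signalling is less settled than that of its relatives, was seen by probe 6450072 and not by probe 7050128. On day −2 the groups overlapped and differed by −0.31, which was not called. On day 0 the control arrays read 7.42, 7.40 and 6.93 and the PPARγ KD arrays 6.92, 6.62 and 6.90, without overlap, and this difference of −0.44 was not called either. On day 2 the control arrays read 5.61, 5.27 and 6.00, none above background, and the PPARγ KD arrays 6.65, 6.51 and 6.73, of which 2 were. That day was the one called (1.00, SE 0.16, limma adjusted p = 0.00398), with a bound of at least 1.01-fold, and it was lost without replicate 1 or 2 (limma adjusted p = 0.496 and 1). Averaged over all days the difference was 0.28 (SE 0.06) and was not called (limma adjusted p = 0.27), though it was with quantile normalization (0.29, limma adjusted p = 0.00688).

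From day 0 to day 2 the control signal of DKK3 dropped at least 1.55-fold (limma adjusted p = 3.66e-08) and then rose at least 1.32-fold to day 6 (limma adjusted p = 2.42e-06). In the PPARγ KD the first of these steps was −0.18 and not called, and the second was a rise of 0.94 (limma adjusted p = 0.0131). On day 6 the PPARγ KD arrays read 7.56, 7.60 and 7.56, above the control arrays at 7.15, 6.99 and 6.91, and that difference of 0.56 was not called.

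Day 2 was thus the day on which the members differed most widely. Of the 12 member probes, all 6 above background were called that day, all higher in the PPARγ KD, while 8.92% of all probes were called and 4.74% called higher. The median day 2 difference was 0.57 over the 12 member probes and −0.12 over all probes, and 1.09 over the 6 members above background beside 0.03 over the 10567 probes above background. Other days held fewer calls. Day −2 had 2 member probes called (0.861% of all probes), day 0 had 1 (3.03%), day 1 had 2 (2.91%), day 3 had 2 (2.76%), and days 4, 5 and 6 had 1 each (2.4%, 3.24% and 3.88%). WNT6 was among the calls of every day.

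**Figure D3:**
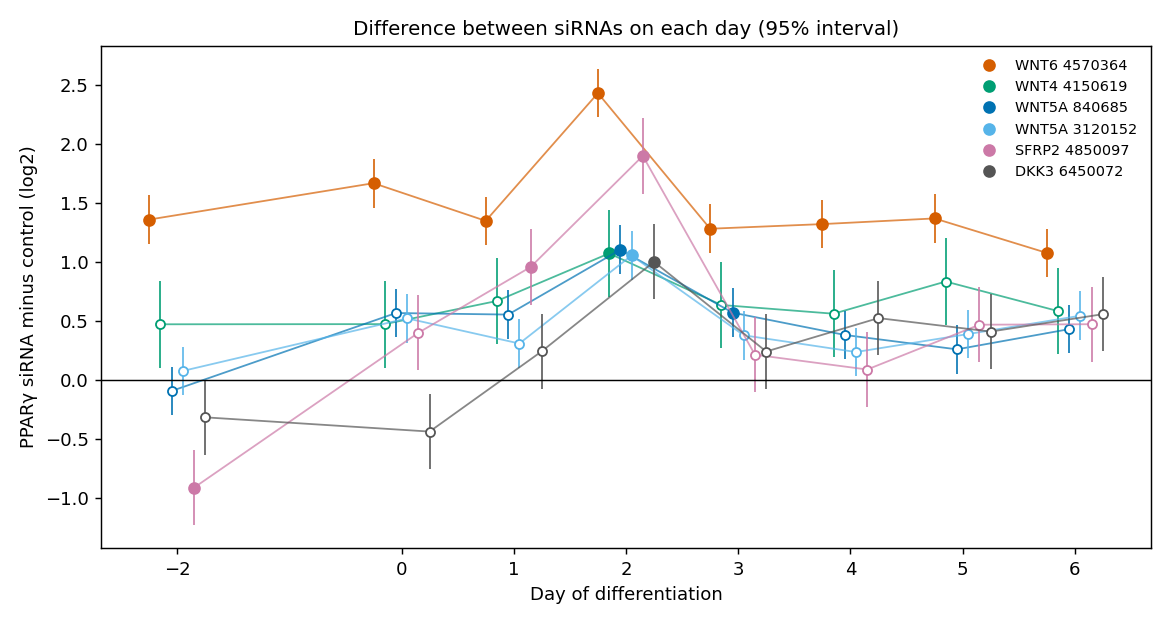
Difference between PPARγ KD and control siRNA (log2, y axis) on each day for the 6 member probes above background, with 95% intervals from the fit; filled points are called and open points are not, and points are shifted sideways for legibility. All 6 probes stand at their highest on day 2, from 1.00 for DKK3 to 2.43 for WNT6, and SFRP2 is below 0 on day −2.

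Each siRNA's own course was tested over the 8 days. The F-test over time called 6 of 12 member probes with control siRNA (23.5% of all probes), the 6 above background, and 4 of 12 in the PPARγ KD (16.5%), those of WNT4, WNT6, SFRP2 and DKK3. Over the single steps, 4 member probes were called from day −2 to day 0 with control siRNA (9.06% of all probes), 5 from day 0 to day 2, all lower (12.4%), and 5 from day 2 to day 6, all higher (12.2%). With PPARγ KD each step held 2 (7.39%, 5.06% and 4.85%). Of the 6, WNT6 was the one not called from day 0 to day 2 with control siRNA and WNT4 the one not called from day 2 to day 6, and in each case none of the control arrays of either day was above background.

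Whether the course differed between siRNAs was tested directly. The F-test of siRNA by day called 4 member probes (7.11% of all probes), SFRP2 (limma adjusted p = 6.53e-08), WNT6 (2.53e-05), WNT5A by probe 840685 (0.00475) and DKK3 (0.0428). The effect on days 4 to 6 minus that on days 0 to 2 was called for 2 (3.63%), WNT6 at −0.56 (SE 0.08, limma adjusted p = 0.00158) and SFRP2 at −0.74 (SE 0.13, limma adjusted p = 0.0318), both smaller late than early on average. For SFRP2 the day 0 difference, 0.40, lay within its range on days 3 to 6, 0.09 to 0.47, so days 1 and 2 carry that contrast. These late-minus-early calls did not hold without single replicates: WNT6 lost its call without replicate 1 or 3 (−0.60 and −0.52) and SFRP2 without any 1 of the 3 (−0.79, −0.73 and −0.74). Of the F-test calls, SFRP2 kept its own without each replicate, WNT6 lost it without replicate 1 or 3, WNT5A without replicate 1 or 2, and DKK3 without any 1 of them. WNT4 (limma adjusted p = 1) and WNT5A probe 3120152 (limma adjusted p = 0.139) were not called in the test of siRNA by day.

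The 6 probes above background on no array give no levels. WNT10B, the classical ligand that restrains fat cell formation, ran from 108.1 to 189.3 in deposited intensity, with a highest detection score of 0.989, and reached a detection p under 0.05 on 25 of 48 arrays. WNT5B ran from 109.3 to 163.5, with a highest score of 0.984 and 29 such arrays. For WNT10A, SFRP1, DKK2 and DKK3 probe 7050128 no array reached a detection p under 0.05, and their highest scores were 0.743, 0.856, 0.639 and 0.847. Neither a fold nor a test result is read from them, and a change of these transcripts below the arrays' background was not detectable.

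The probes whose condition means followed each called member most closely were found over the 16 conditions among 9211 probes above background on at least 24 arrays. For WNT6 they were EG574081 (r = 0.91) and STX3 (0.90). For WNT4 they were FOXC2 (0.96), SNAG1 (0.96) and UHRF2 (0.96). For WNT5A they were TPBG (0.97), FOXJ2 (0.96) and CTDSP2 (0.95) by the brighter probe and TLN1 (0.96), PDLIM2 (0.95) and NFKB1 (0.94) by the other, with no symbol in common. For SFRP2 they were BC029169 (0.97), COL16A1 (0.97), a fibril-associated collagen, and ITGB5 (0.96), an integrin subunit. The points of each correlation share their arrays and their batch, and no test is attached.

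**Figure D4:**
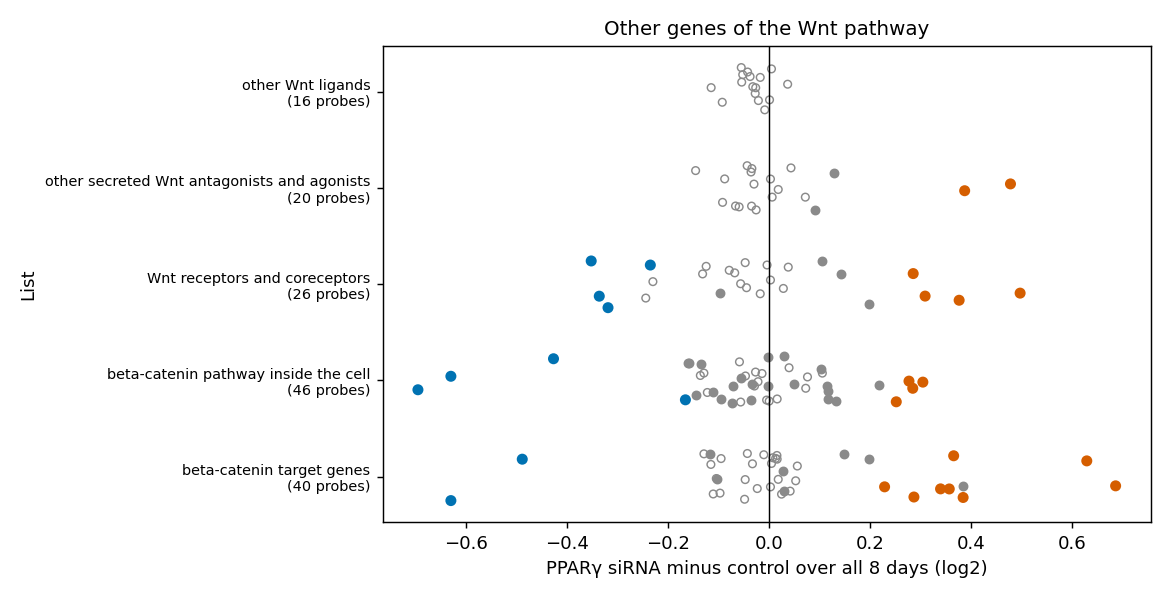
Difference between PPARγ KD and control siRNA over all 8 days (log2, x axis) for the probes of 5 lists of other Wnt pathway genes; each point is a probe, open grey points were above background on fewer than 3 arrays, filled grey ones were not called, and orange and blue ones were called higher and lower. No other ligand is called, the receptors hold 4 in each direction, and the target genes hold 8 orange and 2 blue points.

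The rest of the Wnt pathway was read through 5 lists. None of the 16 probes of the 13 other Wnt ligands was above background on 3 arrays and 0 were called by limma with Bonferroni adjustment (1 at an unadjusted p under 0.05), so WNT4, WNT5A and WNT6 were the ligands these arrays could follow. Of the 20 probes of other secreted antagonists and agonists, 4 were above background and 2 were called, both higher in the PPARγ KD: PORCN, the enzyme that attaches the lipid to Wnt ligands inside the secreting cell, at 0.48 (SE 0.05, limma adjusted p = 6.3e-07), and RSPO3, an R-spondin that strengthens Wnt signalling, at 0.39 (SE 0.04, limma adjusted p = 1.97e-06). RSPO3 was not called without replicate 1. Neither is an antagonist. The list medians were −0.03 for each of these 2 lists, the value over all probes.

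The 26 receptor and coreceptor probes held 4 called higher, 4 called lower and 18 not called, with a median of −0.05, where 13.1% of all probes were called and 6.37% called higher. The Frizzled receptors FZD1 (0.50, SE 0.05) and FZD7 (0.38, SE 0.04) rose in the PPARγ KD, and FZD5 (−0.35, SE 0.03), FZD3 (−0.34, SE 0.04) and the canonical coreceptor LRP5 (−0.32, SE 0.03) fell. FZD7 and FZD3 were not called without replicate 2, nor FZD1 without the replicate block, and FZD3 was above background on 13 control arrays and 5 PPARγ KD arrays. Of the 46 probes for genes acting inside the cell, 4 were called higher and 4 lower, with a median of −0.02, against the same 13.1% called and 6.37% higher. PYGO1, a β-catenin cofactor, was lower (−0.43, SE 0.04), and AXIN1 was higher (0.25, SE 0.02). Of the Groucho family, TLE2 (0.30, SE 0.04), TLE4 (0.28, SE 0.04) and AES (0.28, SE 0.03) were higher and TLE1 alone was lower (−0.17, SE 0.03). None of these Groucho family calls held without replicate 1 or without replicate 2, and those of TLE4, AES and TLE1 were also lost without the replicate block. That of TLE1 was lost too without replicate 3, with scaling to equal medians, without background correction and with an offset of 50. FRAT1 and LEF1 were called lower too, but were above background on 6 and 3 control arrays and on 0 PPARγ KD arrays, so no fold is given.

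Among 40 probes of known β-catenin target genes, 8 were called higher in the PPARγ KD and 2 lower, beside the 13.1% called and 6.37% called higher of all probes, with a median of 0.01. WISP2 (0.69, SE 0.05, limma adjusted p = 3.87e-13) and WISP1 (0.63, SE 0.03, limma adjusted p = 2.7e-16), matricellular proteins named for their induction by WNT1, and the transcription factor TWIST1 (0.38, SE 0.03, limma adjusted p = 3.25e-11) were higher. MYC, above background on 10 control arrays and 6 PPARγ KD arrays, was lower (−0.49, SE 0.05, limma adjusted p = 2.22e-06), as was LEF1, which stands in both lists. Of the 8 probes called higher, 4 read the single gene CCND1, so the count covers 5 genes. On day 2, 10 probes of this list were called higher and 2 lower (8.92% of all probes called, 4.74% higher), with WISP2 at 1.83 and WISP1 at 1.74. The 2 called lower were MYC at −1.65 and LEF1 at −1.14, both above background on few arrays. All 4 CCND1 probes were among the 10 called higher. Of the 40 probes, 17 were above background on at least 3 arrays. Those of AXIN2, NKD1, NKD2, SP5, LGR5, RNF43 and DKK1, among others, were above background on no array. Of the fibroblast marker probes, 9 of 16 were called higher over the same comparison, and their part in these counts was not tested.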

How the data were processed

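RNA of 3T3-L1 cells was measured on 48 Illumina MouseRef-8 BeadChip arrays, 3 biological replicates for each of 2 siRNAs and 8 days. For each probe the authors deposited the mean bead intensity from BeadStudio 3.3.7 without normalization, the SD between beads and the number of beads (median 35), and the deposited detection score is a fraction, 1 minus the detection p-value. The rank-invariant normalization and batch removal of the study's methods are not in these values, and 192 further value columns of the file were not used. The number of arrays and signal over background limit the precision. Between 33.4% and 40.4% of probes were above background on an array.

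Intensities were background-corrected by normexp using the detection p-values (limma 3.58.1, R 4.3.3, offset 16). The scaling of each array rested on rank-invariant probes lying between the 50th and 90th percentiles of the mean array with a rank move under 0.05. The model of the log2 values (lmFit, eBayes) held 16 condition means plus a replicate block, and p-values were Bonferroni adjusted over 24613 probes. The study's methods name a batch effect without saying what the batch was, and the replicate number stands in for it here. Within each of the 24 same-numbered pairs of arrays, deviations from the condition means correlated at 0.544 to 0.914 over the 10567 probes above background on at least 3 arrays, and over all probes at 0.0239 to 0.901, with the lowest pair on day 0 in replicate 1. The fits were tested on simulated data. Where no array of a group was above background for a probe, the fold is a bound. It sets the brighter group's mean against a floor, which is, per array of the dim group, the dimmest detected probe or the measured value, whichever was higher.

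The members and lists were chosen with earlier results of these data known. All 12 member probes are reported, a probe above background on fewer than 3 arrays gets no fold, and from each list at most the 5 called genes with the largest difference are named, each by its brightest probe. TLE1, AES, AXIN1 and CCND1 are named beyond that rule, chosen after their values were seen, as are the β-catenin target genes above background on no array. For each called member up to 3 probes with the most similar course are named, and 1 of those for WNT6 is not reported here. TCF3 and TCF4 were left out of the lists, since these symbols can stand for different genes. Other normalizations, background corrections, filters, blocks and adjustments were tried, and each replicate was left out. The BeadChip of an array is not named in the file header and was not used as a block. Promoters are from RefSeq, and figures were drawn with matplotlib 3.10.9.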

Additional observations from a re-analysis of the deposited data

Results flagged for a closer look

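The F-test of siRNA by day, which called 7.11% of all probes, called 4 of the 5 members above background, and 0 without the replicate block. It gave limma adjusted p-values of 6.53e-08 for SFRP2, 2.53e-05 for WNT6, 0.00475 for WNT5A by probe 840685 (0.139 and not called by probe 3120152) and 0.0428 for DKK3. Of the 12 alternatives, SFRP2 lost this call under 1, WNT6 under 3, WNT5A under 4 and DKK3 under 6. The effect on days 4 to 6 minus that on days 0 to 2 was −0.56 for WNT6 (log2, limma adjusted p = 0.00158) and −0.74 for SFRP2 (limma adjusted p = 0.0318). SFRP2 is the one of these whose difference was called in both directions, −0.91 on day −2 and 1.90 on day 2.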

How the results depend on the processing

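The all-days call of WNT6, WNT4 and both WNT5A probes, each higher in the PPARγ KD, was kept under all 12 alternatives, and that of SFRP2 under 9. All called members kept their direction in each. Sizes moved by over 1.5 times without background correction, where the all-days difference was 0.90 for WNT6, 0.31 for WNT4 and 0.27 for WNT5A probe 3120152 and the day 2 difference 1.44 for WNT6 and 0.54 for WNT5A probe 3120152, while WNT5A probe 840685 stayed between 0.44 and 0.51 over all days in every alternative. The lowest day 2 difference among the 12 alternatives was 0.45 for WNT4 and 0.41 for DKK3 probe 6450072. The day 2 call was lost under 6 of them for WNT4 and under 4 for DKK3. The counts over single days and over time moved more. Without the replicate block the member calls over single days were 8 instead of 16, the late-minus-early calls 0 instead of 2 (2 at an unadjusted p under 0.05), the time course calls in the PPARγ KD 2 instead of 4, the siRNA-by-day calls 0 instead of 4 (4 at an unadjusted p under 0.05), and the step calls 7 instead of 14 with control siRNA and 3 instead of 6 in the PPARγ KD. SFRP2 was lost over all days without the block (limma adjusted p = 1). With Benjamini-Hochberg adjustment there were 34 single-day calls, 7 time course calls and 14 step calls in the PPARγ KD, and DKK3 was called over all days (limma adjusted p = 7.31e-05), as it was by Bonferroni adjustment with quantile normalization (limma adjusted p = 0.00688). These time course and step counts include probes above background on no array, from which no result is read. In the step count they are those of SFRP1 and DKK3 probe 7050128. The late-minus-early calls were 0 with scaling to equal medians, 0 without background correction and 0 with an offset of 50 (4, 4 and 5 at an unadjusted p under 0.05), and 1 with a block of 2 levels that sets replicate 3 apart. The cause was not tested. Across all probes, the all-days calls were 3227 in the main fit and 1769 without the block. They were 7605 with Benjamini-Hochberg adjustment and 3556 with quantile normalization. The counts of all probes over single days, time and steps were not taken under these alternatives.

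Leaving out one replicate or, in an alternative chosen after seeing the data, the PPARγ KD array of day 0 replicate 1 gave 4 to 5 member calls over all days, 11 to 16 over single days, 0 to 2 late minus early, 2 to 4 over time in the PPARγ KD, 1 to 3 for siRNA by day, and 9 to 14 and 2 to 6 over the steps with control siRNA and in the PPARγ KD. The control time course held 6 in each, and the 3 PPARG probes stayed lower. Across all probes, the all-days calls were 1821, 1759 and 2635 without replicates 1, 2 and 3, beside 3227 in the main fit. The share of these calls that were higher was 48.6% in the main fit, and 55.6% with quantile normalization, 41.5% without the block and 35.4% without replicate 2. Scaling moved the day 2 median of all probes from −0.12 to 0.00 with quantile normalization and −0.01 with equal medians. Signals near background limit WNT4 and DKK3 most, and a fit with the BeadChip as a block was not run.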
